A study of Homo sapiens with 6 samples.

Results

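Glutamate and GABA-A receptor subunits were taken as the genes whose symbols name an AMPA (GRIA), NMDA (GRIN), kainate (GRIK), delta (GRID) or metabotropic (GRM) glutamate receptor subunit, or a subunit of the GABA-A receptor (GABR). The rule found 45 genes, 26 for glutamate and 19 for GABA-A receptors, among 59151 genes with a value. The study asked what loss of a circular RNA, circRTN4(2,3), does to neurons made from H9, an established line of human embryonic stem cells. Total RNA depleted of ribosomal RNA was sequenced from H9-derived forebrain neuron progenitor cells at day 26. There were 3 groups of 2 libraries: circRTN4(2,3) knockdown with shRNA1, knockdown of the same circular RNA with shRNA2, and scramble cells, whose genotype is given as WT. The labels do not say how the hairpins were delivered or whether the libraries of a group came from separate cultures, and p-values therefore refer to the spread among libraries that may be technical repeats.

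Glutamate is the main excitatory transmitter of the brain: AMPA and kainate receptors are fast cation channels, NMDA receptors are calcium-permeable channels that need depolarization to open, and metabotropic receptors act through G proteins. GABA-A receptors are chloride channels assembled from several subunits, most often alpha, beta and gamma. In immature neurons, where chloride is high inside the cell, GABA depolarizes, and subunits are exchanged as the neurons mature.

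Levels are in FPKM, fragments corrected for gene length and for the library total, so that levels of different genes can be set side by side. The totals recovered from the values were 82353637 and 78488667 reads for shRNA1, 83629504 and 79949303 for shRNA2, and 46634855 and 77187298 for scramble. In a gene of 1 kb, 3 reads corresponded to 0.0359 to 0.0643 FPKM, and this floor covers counting error only. RTN4, the host gene of the circular RNA, had 34.2 and 34.7 FPKM in shRNA1, 31.2 and 31.3 in shRNA2, and 40.3 and 38.5 in scramble; circular and linear RNA are not separated in these values. PABPC1, the poly(A)-binding protein named in the study title, had 39.2 and 40.6 FPKM in shRNA1, 38.9 and 37.2 in shRNA2, and 46.1 and 43.5 in scramble. The cells held markers of neurons, with summed levels of 373 and 377 FPKM in shRNA1, 324 and 322 in shRNA2, and 361 and 359 in scramble, and of progenitors, between 158 and 183 FPKM in the 6 libraries. Inhibitory neuron markers summed to 88.3 and 85.9 FPKM in shRNA1, 74.1 and 70.2 in shRNA2, and 74.7 and 87.8 in scramble. Excitatory neuron markers summed to 4.44 and 4.82 FPKM in shRNA1, 4.06 and 4.19 in shRNA2, and 3.61 and 3.66 in scramble, with SLC17A7 and NEUROD2 near 0. SLC17A6 and TBR1 made up most of these sums. NEUROD6 went the other way, at 0.0 to 0.0295 FPKM in the knockdown libraries and 0.159 and 0.162 in scramble. Pluripotency markers summed to 5.94 and 6.04 FPKM in shRNA1, 11.6 and 11.7 in shRNA2, and 5.01 and 4.98 in scramble. These sums came almost wholly from DPPA4 and LIN28A, and POU5F1 and NANOG were under 0.1 FPKM in all libraries. Choroid plexus markers summed to 1.83 and 2.15 FPKM in shRNA1, 1.23 and 1.44 in shRNA2, and 7.67 and 8.26 in scramble. None of these 4 markers was at 0 in all libraries. Most of the difference was TTR, at 0.497 and 0.785 FPKM in shRNA1, 0.0577 and 0.0632 in shRNA2, and 6.03 and 6.63 in scramble. CLIC6 was also lower in all knockdown libraries, and KCNJ13 and AQP1 overlapped scramble. In bulk RNA, fewer cells of a type and less RNA per cell cannot be told apart.

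The start sites of the 4 genes on which the comparisons turn most are shown here, because the subunits they encode head the AMPA, NMDA and GABA-A results. Each is 300 bases of RefSeq (GRCh38.p14), 250 before and 50 after the most upstream start listed, and capitals mark a match to a searched motif. GRIA1 lies at chr5:153490420-153490719 (+), GRIA2 at chr4:157219870-157220169 (+), GRIN2B at chr12:13982085-13982384 (-) and GABRB2 at chr5:161546676-161546975 (-).
GRIA1: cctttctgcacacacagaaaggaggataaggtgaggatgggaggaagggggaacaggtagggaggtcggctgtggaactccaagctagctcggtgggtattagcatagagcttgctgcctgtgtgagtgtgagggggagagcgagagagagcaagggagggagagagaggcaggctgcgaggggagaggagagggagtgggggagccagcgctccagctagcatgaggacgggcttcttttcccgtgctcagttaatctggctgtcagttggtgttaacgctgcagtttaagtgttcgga
GRIA2: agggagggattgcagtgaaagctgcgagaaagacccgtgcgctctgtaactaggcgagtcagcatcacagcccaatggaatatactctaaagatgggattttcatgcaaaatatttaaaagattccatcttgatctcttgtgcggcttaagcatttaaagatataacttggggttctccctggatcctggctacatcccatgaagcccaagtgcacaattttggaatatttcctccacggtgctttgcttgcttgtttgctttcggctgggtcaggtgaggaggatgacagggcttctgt
GRIN2B: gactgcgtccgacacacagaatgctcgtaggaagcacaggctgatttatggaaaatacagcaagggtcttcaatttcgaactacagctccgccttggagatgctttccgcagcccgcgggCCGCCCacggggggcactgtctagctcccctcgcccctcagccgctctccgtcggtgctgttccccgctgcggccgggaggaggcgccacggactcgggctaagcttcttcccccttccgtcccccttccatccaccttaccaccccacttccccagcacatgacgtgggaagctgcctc
GABRB2: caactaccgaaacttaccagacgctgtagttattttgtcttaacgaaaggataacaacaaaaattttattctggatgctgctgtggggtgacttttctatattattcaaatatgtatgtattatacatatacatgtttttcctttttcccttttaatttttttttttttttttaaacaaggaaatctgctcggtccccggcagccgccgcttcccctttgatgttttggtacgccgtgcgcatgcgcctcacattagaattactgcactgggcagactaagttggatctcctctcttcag

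GRIN2B had the most GC of the 4 windows (63.0%, with 22 CpG) and GABRB2 the least (39.0%, with 11 CpG). GRIA1 had 57.3% GC and 9 CpG, and GRIA2 had 46.3% GC and 7 CpG. Of 4 motifs searched on both strands, GRIN2B held the GC box (GGGCGG, here as its reverse complement), and the windows of the other 3 genes held none of the 4. Starts further downstream are not shown, and for GRIA2 those at chr4:157220082-157220381 and chr4:157220369-157220668 held a GC box. The GRIA2 start at chr4:157220082-157220381 also held the E-box, and the GRIN2B start at chr12:13981553-13981852 held a GC box. Promoter entries were given for 32 of the 45 genes, with 49 starts. The GC box was in 42.9% of these starts and in 45.0% of all 35116 promoters of the same length. The E-box CAGCTG was in 16.3% against 17.9%, the TATA box TATAAA in 8.16% against 11.5%, and the cyclic AMP response element TGACGTCA in 0 of 49 against 1.85%. These matches describe letters only.

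Glutamate receptor genes were more abundant than GABA-A receptor genes in all 6 libraries. The 26 glutamate receptor genes summed to 47.0 and 47.2 FPKM in shRNA1, 40.0 and 38.2 in shRNA2, and 39.7 and 40.7 in scramble. The 19 GABA-A receptor genes summed to 18.5 and 18.0 FPKM in shRNA1, 12.6 and 13.2 in shRNA2, and 16.6 and 16.3 in scramble. The glutamate sum was 2.39 to 3.17 times the GABA-A sum, and the shRNA2 libraries had the highest ratios, 3.17 and 2.88. Of the 45 genes, 12 averaged at least 1 FPKM over the 6 libraries and were tested, 22 had a mean of 0.1 to 1, and 11 were under 0.1. The 12 included 3 of 4 AMPA, 2 of 7 NMDA, 2 of 5 kainate and 3 of 19 GABA-A receptor genes, and 0 of 8 metabotropic ones. Counts and sums cover every receptor gene, and 10 of the 12 are described one by one.

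Among the 10, the order of mean levels began with GRIA2 (9.20 FPKM) and GRIA1 (6.69), went on with GRIK5 (5.11), GABRA3 (4.97) and GRIK3 (4.31), then GRIA3 (2.97), GRIN2B (2.66) and GABRB2 (2.29), and ended with GRID1 (1.30) and GRIN2D (1.17). Neighbours in this order overlapped over the 6 libraries in all but 2 places. The lowest GRIA1 library (5.81) was above the highest GRIK5 library (5.73), and the lowest GRIK3 library (3.79) was above the highest GRIA3 library (3.24). GRIK2 (0.812), GRM3 (0.781) and GRM8 (0.755) were the highest of the genes left out of the test, and GRIN2D and GRID1 lay just inside it. At the other end, GABRR3, a rho subunit known from retina, was at or under 3 reads in all 6 libraries, as were GABRR1 in 5, GABRP in 4, GABRA6 in 2 and GRM6 in 1.

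**Figure D1:**
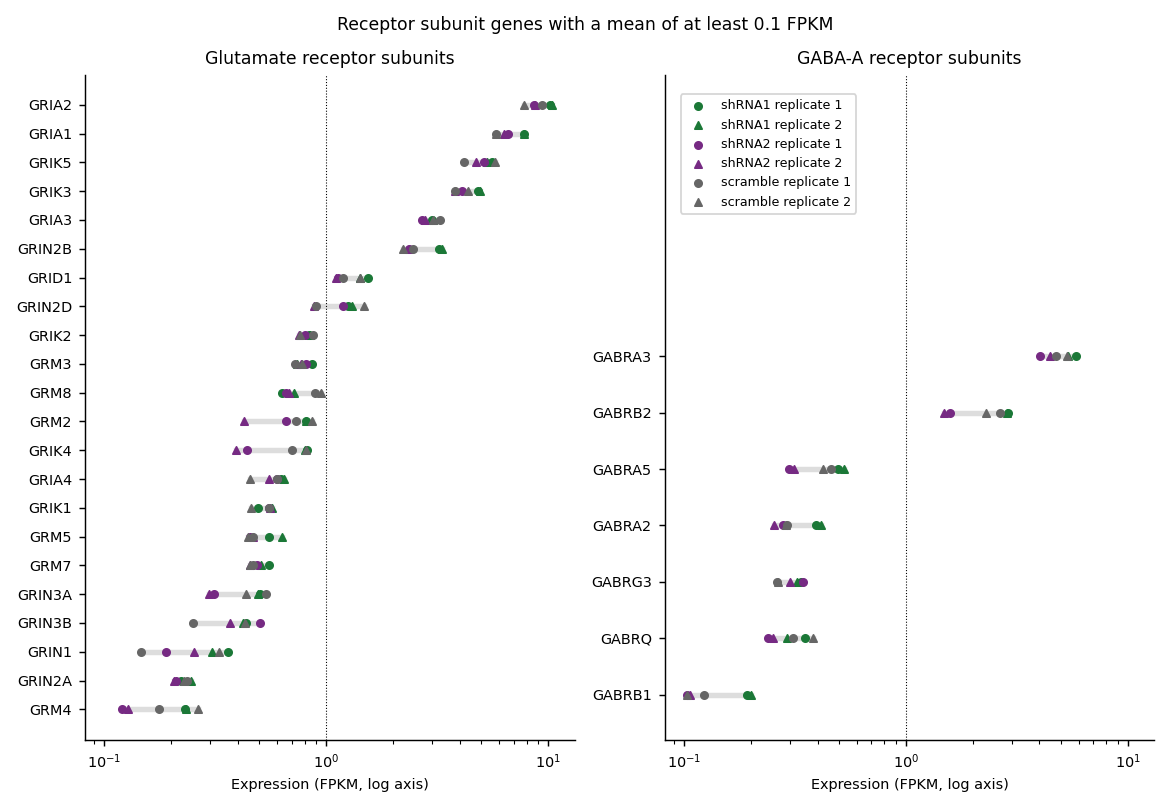
Expression in FPKM (log axis) of 29 receptor subunit genes averaging at least 0.1 FPKM, 22 for glutamate receptors on the left and 7 for GABA-A receptors on the right, with 1 point per library, a grey bar over the range, and a dotted line at 1 FPKM. The AMPA genes GRIA2 and GRIA1 are highest on the left and GABRA3 and GABRB2 on the right, and the purple shRNA2 points of most GABA-A genes lie left of the green shRNA1 points.

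AMPA receptor messages were mainly those of GRIA2 and GRIA1, with GRIA2 at 1.31 to 1.61 times GRIA1. GRIA2, the subunit that in its edited form makes the channel nearly impermeable to calcium, took 45.5 to 49.2% of AMPA receptor FPKM, GRIA1 30.6 to 36.0%, GRIA3 13.8 to 17.8% and GRIA4 2.65 to 3.24%. GRIA1, a subunit known for activity-dependent delivery to synapses, had 7.79 and 7.78 FPKM in shRNA1, 6.61 and 6.33 in shRNA2, and 5.81 and 5.82 in scramble. The 3 groups did not overlap, and all 4 knockdown libraries were above both scramble libraries. GRIA2 had 10.2 and 10.5 FPKM in shRNA1, 8.68 and 8.68 in shRNA2, and 9.34 and 7.76 in scramble, so that shRNA1 stood above the others and shRNA2 lay inside the scramble range. GRIA3 had 2.99 and 3.04 FPKM in shRNA1, 2.70 and 2.80 in shRNA2, and 3.24 and 3.04 in scramble, with shRNA2 below both other groups. GRIA4 ranged from 0.552 to 0.644 FPKM in the knockdown libraries and was 0.600 and 0.452 in scramble.

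NMDA receptors were represented by GRIN2B and GRIN2D, the GRIN2 subunits known for embryonic and early postnatal brain. GRIN2B made up 55.3 to 67.5% of GRIN2 FPKM and exceeded GRIN2A, the subunit of mature synapses, by 9.78 to 14.6 times. GRIN2B had 3.22 and 3.32 FPKM in shRNA1, 2.37 and 2.37 in shRNA2, and 2.47 and 2.23 in scramble. The shRNA1 libraries were above all others, and shRNA2 lay between the scramble libraries. GRIN2D had 1.25 and 1.31 FPKM in shRNA1, 1.19 and 0.880 in shRNA2, and 0.895 and 1.48 in scramble. The scramble libraries enclosed shRNA1 and overlapped shRNA2. GRIN1, the subunit every NMDA receptor needs, had only 0.363 and 0.305 FPKM in shRNA1, 0.190 and 0.255 in shRNA2, and 0.147 and 0.328 in scramble. GRIN2B was at 6.79 to 16.8 times the GRIN1 level, and the scramble libraries were the ends of this range. GRIN3A, a subunit that lowers calcium entry through NMDA receptors, had 0.501 and 0.493 FPKM in shRNA1, 0.311 and 0.297 in shRNA2, and 0.534 and 0.435 in scramble, with shRNA2 below the other groups. GRIN3B ranged from 0.252 to 0.503 FPKM, GRIN2A from 0.206 to 0.246 and GRIN2C from 0.0699 to 0.0969.

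Kainate receptor messages were led by GRIK5, an accessory subunit of high agonist affinity that needs a partner of the GRIK1 to GRIK3 kind, and by GRIK3. GRIK5 had 5.56 and 5.32 FPKM in shRNA1, 5.16 and 4.73 in shRNA2, and 4.18 and 5.73 in scramble; the scramble libraries enclosed the other 4. GRIK3 had 4.85 and 4.92 FPKM in shRNA1, 4.11 and 3.79 in shRNA2, and 3.81 and 4.36 in scramble, with shRNA1 above the others. GRIK4, the other accessory subunit, had 0.819 and 0.805 FPKM in shRNA1, 0.438 and 0.392 in shRNA2, and 0.703 and 0.813 in scramble. Both shRNA2 libraries of GRIK4 were well under the other 4. GRIK2 ranged from 0.755 to 0.868 FPKM and GRIK1 from 0.461 to 0.568.

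GRID1, a delta subunit known as a synapse organizer that binds cerebellins, had 1.54 and 1.43 FPKM in shRNA1, 1.13 and 1.11 in shRNA2, and 1.19 and 1.42 in scramble. Its groups did not overlap, with shRNA1 highest and shRNA2 lowest.

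All 8 metabotropic receptor genes had a mean under 1 FPKM, and their sum was 3.85 and 3.88 FPKM in shRNA1, 3.39 and 3.14 in shRNA2, and 3.66 and 3.94 in scramble. GRM3, a receptor that lowers cyclic AMP, had 0.865 and 0.735 FPKM in shRNA1, 0.811 and 0.772 in shRNA2, and 0.725 and 0.776 in scramble, and its groups overlapped. GRM8, a presynaptic receptor of the same signalling kind, had 0.635 and 0.715 FPKM in shRNA1, 0.660 and 0.678 in shRNA2, and 0.892 and 0.951 in scramble. It was the sole gene of the 34 averaging at least 0.1 FPKM that was lower in all 4 knockdown libraries than in both scramble libraries. GRM2 ranged from 0.428 to 0.866 FPKM, GRM4 from 0.120 to 0.263 and GRM6 from 0.00641 to 0.0343. GRM5 (0.446 to 0.630 FPKM) shares 50.4% of its exon bases with the antisense gene GRM5-AS1, and reads of the pair cannot be told apart without a strand setting, which is not given in the sources used here.

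Among GABA-A receptor genes, GABRA3, known as a prominent alpha subunit of the developing brain, took 77.4 to 83.8% of alpha subunit FPKM. GABRA3 had 5.84 and 5.40 FPKM in shRNA1, 4.03 and 4.47 in shRNA2, and 4.73 and 5.32 in scramble. Its groups did not overlap, with shRNA1 highest and shRNA2 lowest. GABRB2, the beta subunit of the common adult receptor, had 2.88 and 2.87 FPKM in shRNA1, 1.58 and 1.48 in shRNA2, and 2.65 and 2.30 in scramble, in the same order of groups and with the largest log2 difference between the hairpins of the 12 tested genes.

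The less abundant GABA-A genes gave the same order in several cases. GABRA5, known for extrasynaptic receptors, had 0.493 and 0.528 FPKM in shRNA1, 0.296 and 0.314 in shRNA2, and 0.458 and 0.423 in scramble. GABRA2 had 0.395 and 0.415 FPKM in shRNA1, 0.279 and 0.256 in shRNA2, and 0.292 and 0.287 in scramble. In GABRA5 and GABRA2, shRNA1 was again highest and shRNA2 lowest with no overlap. GABRG3, at 0.337 and 0.325 FPKM in shRNA1, 0.344 and 0.300 in shRNA2, and 0.263 and 0.265 in scramble, was instead higher under both hairpins. GABRQ ranged from 0.239 to 0.380 FPKM and GABRB1 from 0.103 to 0.201, and 9 GABA-A receptor genes had means under 0.1 FPKM.

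**Figure D2:**
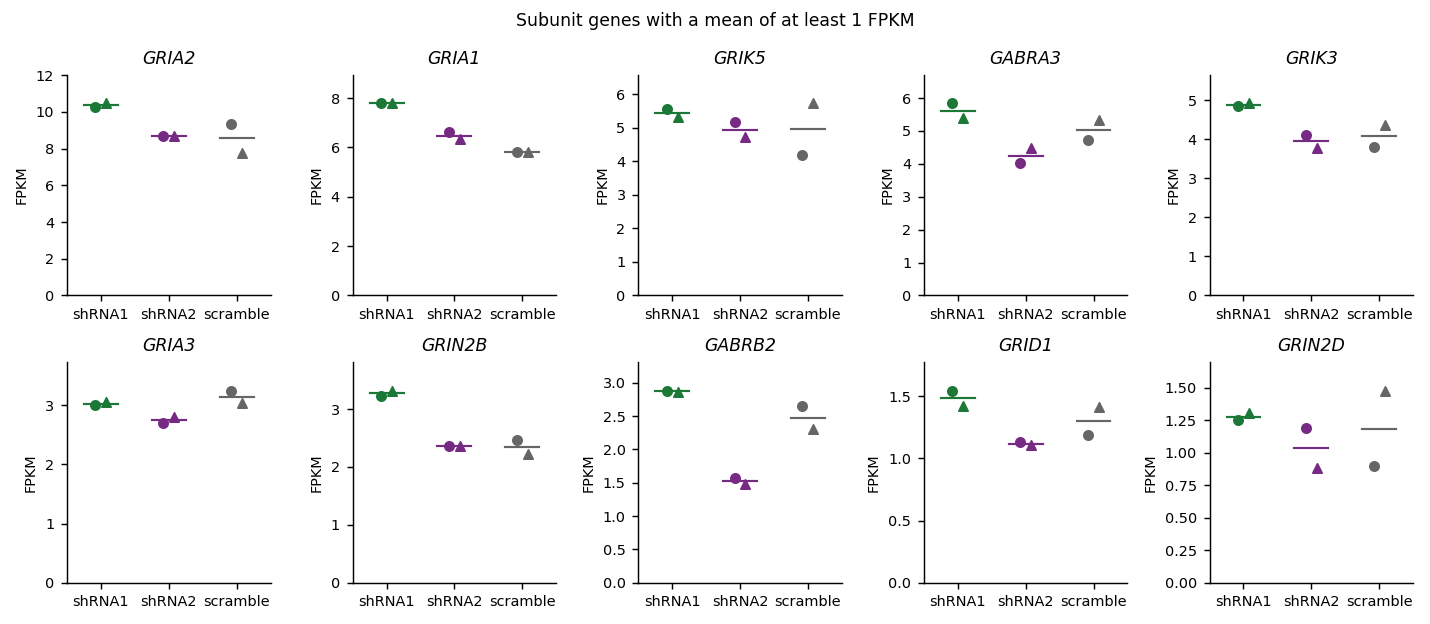
Expression in FPKM of 10 tested receptor subunit genes in shRNA1, shRNA2 and scramble (circles, replicate 1; triangles, replicate 2; lines, mean of 2 libraries; each axis starts at 0). GABRB2 is lowest in shRNA2 (1.58 and 1.48 FPKM), GRIA1 is lowest in scramble (5.81 and 5.82), and the scramble libraries of GRIK5 and GRIN2D lie far apart.

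The scramble libraries differed from each other more than those of the hairpin groups did. Over all tested genes the median SD of log2(FPKM + 1) was 0.0355 in shRNA1, 0.0452 in shRNA2 and 0.109 in scramble. The difference between the scramble libraries followed transcript GC content, with Pearson r = 0.857 over 10090 protein-coding genes and 0.962 over the 12 receptor genes, which share these libraries and are not independent. The shRNA2 libraries (replicate 2 minus replicate 1) also differed along GC, with r = -0.565 over the protein-coding genes and -0.687 over the 12, and the shRNA1 libraries less so (-0.193 and -0.117). For the mean difference of shRNA2 minus shRNA1, r was -0.218 over the protein-coding genes and 0.541 over the 12. GC-rich GRIN2D (69.0%) and GRIK5 (63.8%) were higher in scramble replicate 2, and AT-rich GRIA2 (37.9% GC) and GABRB2 (37.3%) were higher in scramble replicate 1. Fold changes are therefore also given after a correction chosen after seeing the data, in which the GC trend of each library was removed over protein-coding genes. It brought the median SD over protein-coding genes to 0.0234 in shRNA1, 0.0259 in shRNA2 and 0.0439 in scramble, against 0.0247, 0.0330 and 0.0987 without it.

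**Figure D3:**
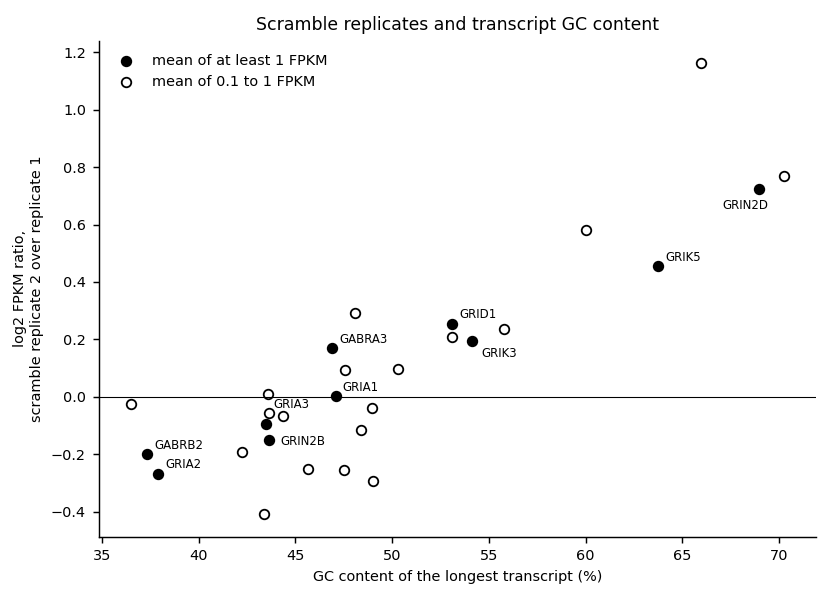
log2 ratio of FPKM in scramble replicate 2 over scramble replicate 1 against the GC content (%) of the longest transcript, for 29 genes averaging at least 0.1 FPKM; filled points are 10 tested genes. GRIN2D (69.0% GC), with a ratio of 1.65 before the log, lies highest of the filled points, and GABRB2 (37.3%) and GRIA2 (37.9%) lie below 0.

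What both hairpins share was read from genes with all 4 knockdown libraries on the same side of scramble. The fits of knockdown against scramble tested the mean of the 2 hairpins, which 1 hairpin alone can move. GRIA1 was the sole tested receptor gene whose 4 knockdown libraries were all above scramble, and none lay wholly below, against 5.87% and 12.6% of all genes tested. Among the 34 genes averaging at least 0.1 FPKM, GRIA1 and GABRG3 were higher and GRM8 lower, against 7.88% and 9.89% of all genes at that level. On the log2(FPKM + 1) scale, where changes of weakly expressed genes come out too small, GRIA1 was 0.25 higher (SE 0.04; limma, Benjamini-Hochberg adjusted p = 0.135) and GRIN2B 0.18 higher (SE 0.05, adjusted p = 0.258). None of the 12 genes passed an adjusted p of 0.05, where 0.0826% of all tested genes did (1 higher and 14 lower); 2 of the 12 had an unadjusted p under 0.05, against 13.8% of all. The median difference was 0.02 for the 12 genes, -0.03 for all genes and -0.05 for protein-coding genes. The summed choroid plexus markers were lower in all 4 knockdown libraries (1.23 to 2.15 FPKM) than in scramble (7.67 and 8.26), mainly through TTR. KCNJ13 and AQP1 of that list overlapped scramble. The part of these markers in the results was not tested. With median of ratios scaling the calls over all genes were 10 higher and 18 lower, and with quantile normalization 12 higher and 18 lower. With the GC correction, 4 of the 12 rose: GRIA1, GRIA2, GRIK3 and GRIN2B. Among protein-coding genes 10.3% were called and 4.28% called higher, with 432 higher and 607 lower. GRIA1 was 0.31 higher (SE 0.03; limma, adjusted p = 0.000999). Of the 4 genes, GRIA1 alone was also called higher in shRNA2 against scramble with this correction. With voom on estimated reads, GRIA1 alone of 40 receptor genes tested passed (0.29 higher, adjusted p = 0.0401), where 1.94% of all genes did and 0.311% were higher.

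Against scramble, most of the 12 tested genes had higher values in shRNA1, among receptors of both transmitters. Among the 34 genes averaging at least 0.1 FPKM, 17 were higher without overlap and 1, GRM8, lower, against 18.3% and 17.2% of all genes at that level. Of the 12 tested genes 9 were higher and 0 lower, against 15.8% and 18.9%. GRIA1 was 0.37 higher (SE 0.05; limma, adjusted p = 0.224), GRIN2B 0.35 (SE 0.06, adjusted p = 0.298), GRIA2 0.25 (SE 0.09, adjusted p = 0.497) and GRIK3 0.21 (SE 0.07, adjusted p = 0.505). None of the 12 passed, where 0.033% of all genes did (0 higher and 6 lower); 4 of the 12 had an unadjusted p under 0.05, against 8.97% of all. The median was 0.15 for the 12 genes, 0.17 for the 9 glutamate and 0.14 for the 3 GABA-A receptor genes, and close to 0 for all genes (-0.0028). Over protein-coding genes it was -0.011. With the GC correction 6 rose, among them GRIA1, GRIA2, GRIN2B, GRIK3 and GABRB2, where 8.0% of protein-coding genes were called and 3.73% called higher (376 higher and 431 lower). With voom GRIA1 (adjusted p = 0.0344) and GRIN2B (adjusted p = 0.0241) rose, where 0.528% of all genes were called and 0.121% called higher.

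Against scramble, shRNA2 libraries were lower for 8 of 10 GABA-A and 8 of 24 glutamate receptor genes averaging at least 0.1 FPKM. Of the 34 genes, 16 were lower and 3 higher without overlap, against 26.2% and 17.7% of all genes at that level. Of the 12 tested, 5 were lower (GRIA3, GRID1, GABRA3 and GABRB2 among them) and 1, GRIA1, higher, against 34.4% and 13.3% of all. GABRB2 was 0.46 lower (log2 fold change -0.46, SE 0.07; limma, adjusted p = 0.0756) and GABRA3 had -0.20 (SE 0.08, adjusted p = 0.271), while GRIA1 had 0.13 (SE 0.05, adjusted p = 0.236). None of the 12 passed, where 0.628% of all genes did (34 higher and 80 lower); 3 of the 12 had an unadjusted p under 0.05, against 19.2% of all. The median was -0.09 for the 12 genes, -0.04 for the glutamate and -0.23 for the GABA-A receptor genes, and -0.06 for all genes. Over protein-coding genes, to which all 12 belong, it was also -0.09. With median of ratios scaling the calls over all genes were 43 higher and 48 lower, and with quantile normalization 37 higher and 34 lower.

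In this comparison no receptor gene passed with a smaller pseudocount, no filter, median of ratios scaling, quantile normalization or a replicate block. None passed with only the shRNA2 and scramble libraries either. Leaving out each library in turn gave GABRB2 log2 fold changes from -0.53 to -0.39. GABRB2 did pass under the fits that follow. Among protein-coding genes alone its adjusted p was 0.0227 (3.8% called, 3.36% lower), with the GC correction 0.00113 (log2 fold change -0.39; 16.1% called, 713 higher and 912 lower), and with voom 0.00816 (-0.68; 4.06% called, 3.53% lower). The GC correction called 3 of the 12, GRIA1 higher among them (0.23, adjusted p = 0.00405). voom, which also tested low genes, called 5 receptor genes lower, with GRIK4 (-0.88, adjusted p = 0.0107) and GRIN3A (-0.64, adjusted p = 0.0477) among them.

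Between the hairpins, most receptor genes of both transmitters had lower values in shRNA2. Of the 34 genes, 28 had both shRNA2 libraries below both shRNA1 libraries (19 of 24 glutamate and 9 of 10 GABA-A receptor genes) and 0 had them above, against 35.0% and 18.8% of all genes at that level. All 12 tested genes were lower in shRNA2 without overlap, against 46.6% of all tested genes. Their log2 differences went from -0.10 (GRIA3) to -0.62 (GABRB2). Of 10090 protein-coding genes, to which all 12 belong, 7793 had a negative difference, with or without overlap. The median was -0.24 for the 12 genes, -0.23 for the glutamate and -0.33 for the GABA-A receptor genes, and -0.06 for all genes. Over protein-coding genes it was -0.08. Before the GC correction, scramble lay between the hairpins without overlap in 7 of the 34 genes and 4 of the 12. In these, shRNA1 was above and shRNA2 below scramble, against 2.78% and 3.47% of all genes. After the correction, shRNA2 overlapped scramble for GRID1 and GABRA3. The marker sums of neurons and of inhibitory neurons were also lower in shRNA2, though ELAVL4 of the neuron list was higher. The progenitor sum was higher in shRNA2 (169 and 166 FPKM) than in shRNA1 (158 and 158). Within it NES, FABP7 and SOX2 were higher, VIM, PAX6 and HES1 lower, and HES5 overlapped. The pluripotency sum, carried by DPPA4 and LIN28A, was higher. The part of these markers in the result was not tested.

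GABRB2 was 0.62 lower in shRNA2 than in shRNA1 (log2 fold change -0.62, 95% interval -0.80 to -0.44; limma, adjusted p = 0.0976), GRIN2B had -0.34 (-0.50 to -0.19, adjusted p = 0.140), GABRA3 -0.33 (-0.54 to -0.13, adjusted p = 0.189) and GRIA1 -0.23 (-0.36 to -0.11, adjusted p = 0.165). Neither any of the 12 nor any other gene passed (0.0% of all), but 9 of the 12 had an unadjusted p under 0.05, against 16.1% of all. The fit shares its spread with the scramble libraries, and with the 4 hairpin libraries alone GABRB2 (adjusted p = 0.0410), GRIN2B (0.0444), GRIA2 (0.0448) and GRIA1 (0.0487) were among the genes that fell in shRNA2, where 5.27% of all genes were called and 4.42% called lower. With protein-coding genes alone GABRB2 (adjusted p = 0.0222) and GRIN2B (0.0461) fell, where 2.43% were called and 2.04% called lower. With the GC correction 8 of the 12 fell, among them GABRA3, GABRB2, GRIA1, GRIA2, GRIK3 and GRIN2B, where 18.4% of protein-coding genes were called and 9.78% called lower (874 higher and 987 lower). With voom 11 of 40 receptor genes fell and none rose, where 3.1% of all genes were called and 2.6% called lower (adjusted p from 0.00506 to 0.0476). They included GABRB2 (-0.91), GABRA5 (-0.74), GABRA2 (-0.60), GRIK4 (-0.97), GRM4 (-0.90), GRIN3A (-0.71) and GRIN2B (-0.47). GRIK5 and GRIN2D, the GC-rich genes, had -0.12 (-0.45 to 0.22) and -0.17 (-0.55 to 0.22) before the GC correction and 0.02 (-0.05 to 0.10) and -0.00056 (-0.12 to 0.12) after it.

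**Figure D4:**
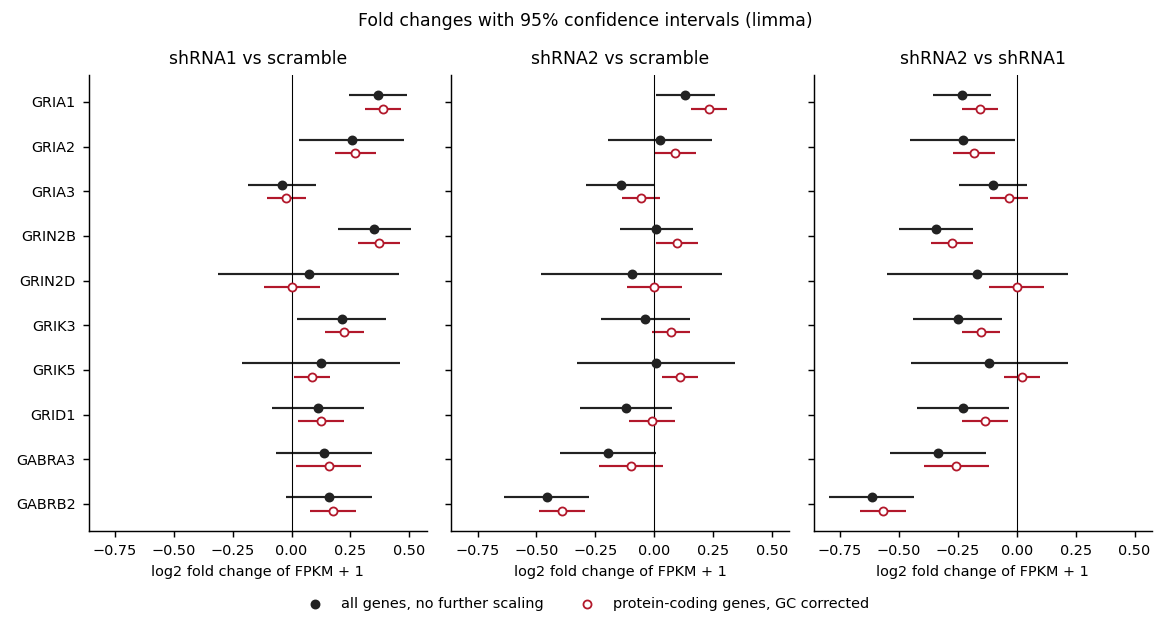
log2 fold changes of FPKM + 1 with 95% confidence intervals (limma) for 10 tested genes in shRNA1 against scramble, shRNA2 against scramble, and shRNA2 against shRNA1; filled points are without and open points with the GC correction over protein-coding genes. GABRB2 lies farthest left in the comparisons of shRNA2, and GRIA1 lies right of 0 against scramble for both hairpins.

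Many GABA-A receptor genes sit in clusters, of which 2 are given here on GRCh38 by GENCODE v29. GABRG1, GABRA2, GABRA4 and GABRB1 lie at chr4:46035769-47426444, and GABRE, GABRA3 and GABRQ at chrX:151953124-152657534. The mean FPKM in shRNA2 over that in shRNA1 was 0.660 for GABRA2, 0.657 for GABRA4, 0.533 for GABRB1 and 1.47 for GABRG1 on chromosome 4, and 0.757 for GABRA3, 0.768 for GABRQ and 0.699 for GABRE on chromosome X. GABRG1, GABRA4 and GABRE averaged under 0.1 FPKM, and the GABRG1 libraries ranged from 0.0313 to 0.0928 FPKM. It was 0.532 for GABRB2 on chromosome 5, and on chromosome 15 it was 0.598 for GABRA5 and 0.972 for GABRG3. Over scramble, the shRNA2 ratio was 0.618 for GABRB2, 0.693 for GABRA5, 0.922 for GABRA2 and 1.22 for GABRG3. Genes of a cluster share the libraries, and no test was made of the clusters.

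Genes that work with these receptors were read from lists of partners, and 0 of the 55 tested passed in any of the 4 limma comparisons, with 7, 11, 13 and 20 at an unadjusted p under 0.05 for knockdown, shRNA1 and shRNA2 against scramble and shRNA2 against shRNA1. Over all tested genes the unadjusted shares were 13.8%, 8.97%, 19.2% and 16.1% in the same order. With voom, 5, 2, 8 and 8 of 76 partner genes passed in that order, where 1.94%, 0.528%, 4.06% and 3.1% of all genes did. With the GC correction 8, 10, 10 and 17 of 55 passed, where 10.3%, 8.0%, 16.1% and 18.4% of protein-coding genes did. Some of these counts lie above the matching shares, and whether the lists differ from other genes was not tested. Of 19 AMPA and kainate auxiliary subunits 10 were tested; in knockdown against scramble the smallest p values were those of SHISA6 (0.17, adjusted p = 0.276), CACNG4 (-0.18, adjusted p = 0.387) and NETO2 (-0.16, adjusted p = 0.407). All 10 were lower in shRNA2 than in shRNA1 without overlap, with a median of -0.23. The excitatory scaffold list had 20 of 23 tested, with 12 lower and 2 higher in shRNA2 than in shRNA1 and a median of -0.11, and was led by HOMER2 (-0.24), the cerebellin CBLN1 (-0.22) and DLG2 (0.10) in knockdown against scramble. The inhibitory scaffold and trafficking list had 12 of 13 tested, all 12 lower in shRNA2 than in shRNA1, with a median of -0.16. GPHN, the gephyrin scaffold that anchors GABA-A receptors, had 5.71 and 5.58 FPKM in shRNA1, 5.03 and 5.05 in shRNA2, and 5.73 and 5.61 in scramble, with shRNA2 lowest. ZDHHC3, which palmitoylates the gamma subunit, had -0.11 in knockdown against scramble. These shares stand against 46.6% of all tested genes lower and 16.6% higher.

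Transmitter synthesis and uptake had 9 of 14 genes tested, of which 7 were lower in shRNA2 than in shRNA1, with a median of -0.23. GAD1, which makes GABA, had 6.42 and 6.46 FPKM in shRNA1, 4.76 and 4.56 in shRNA2, and 4.34 and 4.15 in scramble, and was 0.31 higher in knockdown than in scramble (limma, adjusted p = 0.115); it passed with voom and with the GC correction. Its 3 groups did not overlap, in the order also seen for GRIA1. The glutamate transporter SLC1A3 had -0.33 (adjusted p = 0.163) and the glutamine synthetase gene GLUL -0.18 (adjusted p = 0.239) in the same comparison. SLC12A5, which exports chloride and so sets the sign of the GABA response, had 1.64 and 1.65 FPKM in shRNA1, 1.17 and 1.09 in shRNA2, and 1.08 and 1.53 in scramble, and SLC12A2, which imports chloride, ranged from 2.20 to 2.56 FPKM over the 6 libraries. The scramble libraries of SLC12A5 overlapped shRNA2 and not shRNA1. The GABA-B receptor genes GABBR1 and GABBR2 were both lower in shRNA2 than in shRNA1 (-0.28 and -0.30), and GLRA2, the 1 of 5 glycine receptor genes tested, had -0.23.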

How the data were processed

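Ribosome-depleted total RNA was sequenced in 6 libraries. The deposited table holds 1 FPKM value per gene symbol and library, made by the authors, per the file headers; HISAT2 2.1.0, featureCounts 2.0.1, SAMtools 1.9, Trimmomatic 0.39 and the build GRCh38 are named per the submitters' processing notes. How strand and multiply mapped reads were handled, and with which annotation, is not given in the sources used here. The table holds only genes above 0 in at least 1 library; 29 symbols had become dates and 4 entries shared a symbol.

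Library totals were recovered from the FPKM steps of single-exon genes. Estimated reads, used in voom only (genes with a mean of at least 10 reads), are FPKM times GENCODE v29 exon length and total; some came out fractional. log2(FPKM + 1) of 18162 genes averaging at least 1 FPKM was fitted with limma 3.58.1 (R 4.3.3, mean-variance trend, 3 groups in 1 fit), with Benjamini-Hochberg adjustment over all genes tested and a threshold of 0.05. The procedure was tested on simulated data. Every receptor gene averaging at least 1 FPKM is named with all values, with the 3 highest below that, and of each partner list at most 3 genes with the smallest p. Some genes that this rule names are not reported here, but all counts, sums, medians and tests include them. Genes outside that rule were named after their values were seen. Members and lists were chosen with earlier results of these data known. The voom fit, the GC correction (loess on transcript GC) and a crossed pairing were chosen after seeing the data. The labels name no batch.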

Additional observations from a re-analysis of the deposited data

Results flagged for a closer look

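In 7 of the 34 receptor genes averaging at least 0.1 FPKM, both shRNA1 libraries were above and both shRNA2 libraries below both scramble libraries, so that the hairpins against the same circular RNA lay on opposite sides of scramble; 2.78% of all genes at that level did so. Among the 12 genes averaging at least 1 FPKM it was 4, against 3.47%. Of the 7 genes, 5 are given here. The positions relative to scramble are before the GC correction, and after it shRNA2 overlapped scramble for GRID1 and GABRA3. No fit called GABRA3, GRID1, GABRA5 or GABRA2 against scramble. The values and tests that follow compare the hairpins with each other and not with scramble. The log2 ratio of mean FPKM in shRNA2 over shRNA1 was -0.91 for GABRB2, -0.74 for GABRA5, -0.60 for GABRA2, -0.41 for GRID1 and -0.40 for GABRA3. GABRB2, GABRA3 and GRID1 did not pass the direct limma test of shRNA2 against shRNA1, with adjusted p = 0.0976 for GABRB2, 0.189 for GABRA3 and 0.264 for GRID1. GABRA5 and GABRA2 were under the filter of that test. voom passed GABRB2, GABRA2 and GABRA5 but not GABRA3 (adjusted p = 0.0615) or GRID1 (adjusted p = 0.0899), and the GC correction passed GABRB2 and GABRA3 but not GRID1 (adjusted p = 0.0620).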

How the results depend on the processing

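No receptor gene passed in the fit without further scaling, nor with a pseudocount of 0.1, no filter, median of ratios scaling, quantile normalization or the replicate block. Receptor genes called were 1 with voom and 4 with the GC correction for knockdown against scramble, 2 and 6 for shRNA1 against scramble, 5 and 3 for shRNA2 against scramble (1 with protein-coding genes only), and 11 and 8 for shRNA2 against shRNA1 (2 with protein-coding genes only, 5 with only the libraries compared). Leaving out 1 library gave 0 to 1, 0, 0 to 1 and 0 to 5; GRIA2 was called in knockdown without scramble replicate 1, and leaving out either scramble library called GABRB2 in shRNA2 against scramble and 5 genes (among them GABRB2, GRIA1, GRIA2 and GRIN2B) between the hairpins.

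Over all genes, knockdown against scramble had 15 calls: 0 with no filter, 23 with pseudocount 0.1 and a mean of at least 0.1 FPKM, 28 with median of ratios, 30 with quantile normalization, 102 with protein-coding genes only, 367 with voom, 1039 with the GC correction, and 0 (either shRNA2 library) to 507 (scramble replicate 1) without 1 library. For shRNA1 against scramble 6 became 2 with pseudocount 0.1 under either filter, 0 with no filter or only the libraries compared, 22, 100 and 807 with protein-coding genes, voom and the GC correction, and 0 to 1 without 1 library. For shRNA2 against scramble 114 became 0 with no filter, 45 with pseudocount 0.1 and the lower filter, 71 with quantile normalization, 1 with only the libraries compared, 383, 769 and 1625 with protein-coding genes, voom and the GC correction, and 0 (either shRNA2 library) to 2418 (scramble replicate 1) without 1 library, with 534 without scramble replicate 2. Between the hairpins 0 became 245, 588 and 1861, 957 with only the libraries compared, and 0 (any hairpin library) to 1029 (scramble replicate 2) without 1 library, with 978 without scramble replicate 1.

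The replicate numbers did not pair the libraries (correlations of deviations -0.0077, -0.150 and 0.0122). The replicate block left 1 call for knockdown and 0 for each hairpin against scramble; a crossed pairing of shRNA2 and scramble gave 7 calls, 0 of them receptor genes.

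Directions near 0 reversed. With median of ratios scaling, knockdown against scramble became 0.0123 for GRIN2D, 0.0206 for GRID1 and 0.0053 for GABRA3 (0.0128 with quantile normalization), and shRNA2 against scramble 0.0311 for GRIK3 (0.0271 with quantile normalization). With the GC correction, knockdown became 0.0014 for GRIN2D, 0.0583 for GRID1 and 0.0299 for GABRA3; shRNA2 against scramble became 0.0011 for GRIN2D and 0.0716 for GRIK3; and GRIK5 became 0.0239 between the hairpins. With voom GRIK5 was -0.0135 in shRNA2 against scramble. Without 1 library, knockdown ranged from -0.21 to 0.18 for GRIN2D, -0.0751 to 0.0685 for GRID1, -0.12 to 0.26 for GRIK5 and -0.10 to 0.0395 for GABRA3; shRNA1 from -0.12 to 0.27 for GRIN2D and -0.0648 to 0.31 for GRIK5; shRNA2 from -0.10 to 0.14 for GRIA2, -0.0425 to 0.0616 for GRIN2B, -0.29 to 0.10 for GRIN2D, -0.12 to 0.0397 for GRIK3 and -0.18 to 0.20 for GRIK5. The cause of these changes was not tested. A lone library of a group is assumed to vary like the others. Precision is limited by 2 libraries a group and, for 5 genes, by 3 reads or fewer in at least 1 library.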
